A study of Saccharomyces cerevisiae with 2 samples.

Results

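The genes described here are the protein-coding features that gave at least 1 sense read in a crosslinking library made with tagged Bud22. Of 2032 protein-coding features counted in either library, 106 had such reads, and 83 remained after 23 were left out by name (ribosomal protein genes, Ty reading frames and frames nested in the ribosomal DNA). The members were chosen on their Bud22 sense count, so that count and every ratio built on it are descriptions. The control counts were not used in the choice. A row had to reach 1 read to enter: 17 members had exactly 1 sense read with Bud22, and 39 rows just outside had 0 sense reads but 1 to 6710 antisense reads.

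The study used CRAC, in which a tagged protein is crosslinked to RNA in living yeast, purified under denaturing conditions, and its attached RNA fragments are copied into cDNA and sequenced. One library came from Saccharomyces cerevisiae cells with Bud22-HIS-TEV-proteinA and 1 from W303 wildtype cells without a tag. Both cultures were grown in YPD to an OD600 of 1.0, kept for 4 h in SDC-URA with 4-thiouracil, and given 365 nm light for 30 min. The growth text of the untagged sample names the tagged strain while its genotype label says wild type, and this could not be settled. Each group has 1 library, so no value has a replicate error and no difference was tested.

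Bud22 is a nucleolar protein required for assembly of the small ribosomal subunit. In CRAC an mRNA can be recovered because the bait touched it, because an abundant RNA stayed on the beads, or because a stable RNA gene lies within the annotated span of a reading frame. Some snoRNA and tRNA genes of yeast lie within or beside protein-coding features. A read on one of them can also be counted for a protein-coding feature that overlaps it. Sequences of the members were not used here.

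Of 317922 reads with Bud22 188065 mapped, and of 296925 in the control 97270 did. Sense reads over named features summed to 215982 with Bud22 and 132895 in the control. Both sums exceed the mapped reads, because a read could be counted at several features. The entries of these features summed to 5920 and 37130, an entry being one of the different reads behind a count, as inferred from the values. These sums also repeat an entry that was counted at several features. Entries cover both strands and were limited to the sense count. One entry thus stood for 36.5 reads on average with Bud22 and 3.58 in the control. Reads copied from 1 entry are not independent molecules, and a copy that differs by a sequencing error may form an entry of its own, so reads and entries are both given throughout. All 95% intervals are exact and cover counting error only.

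The 83 members held 2387 sense reads on 191 entries with Bud22, and 821 reads on 305 entries in the control. Their share of all named sense reads was 1.11% (Clopper-Pearson interval 1.06 to 1.15) with Bud22 and 0.618% (0.576 to 0.661) in the control. The ratio of these shares was 1.79 (1.65 to 1.94) by reads and 3.93 (3.26 to 4.72) by entries. A ratio above 1 follows in part from the choice of genes with Bud22 reads.

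The reads were spread unevenly over the members. The median member had 17 reads on 1 entry, and the highest had 156 reads. The 11 members with the most reads held 50.3% of all member reads on 55 entries. With Bud22, 47 members rested on a single entry, 15 on 2, 5 on 3 and 16 on 4 or more. A single entry carried up to 58 reads, and 18 members had 10 or more reads from 1 entry alone.

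**Figure D1:**
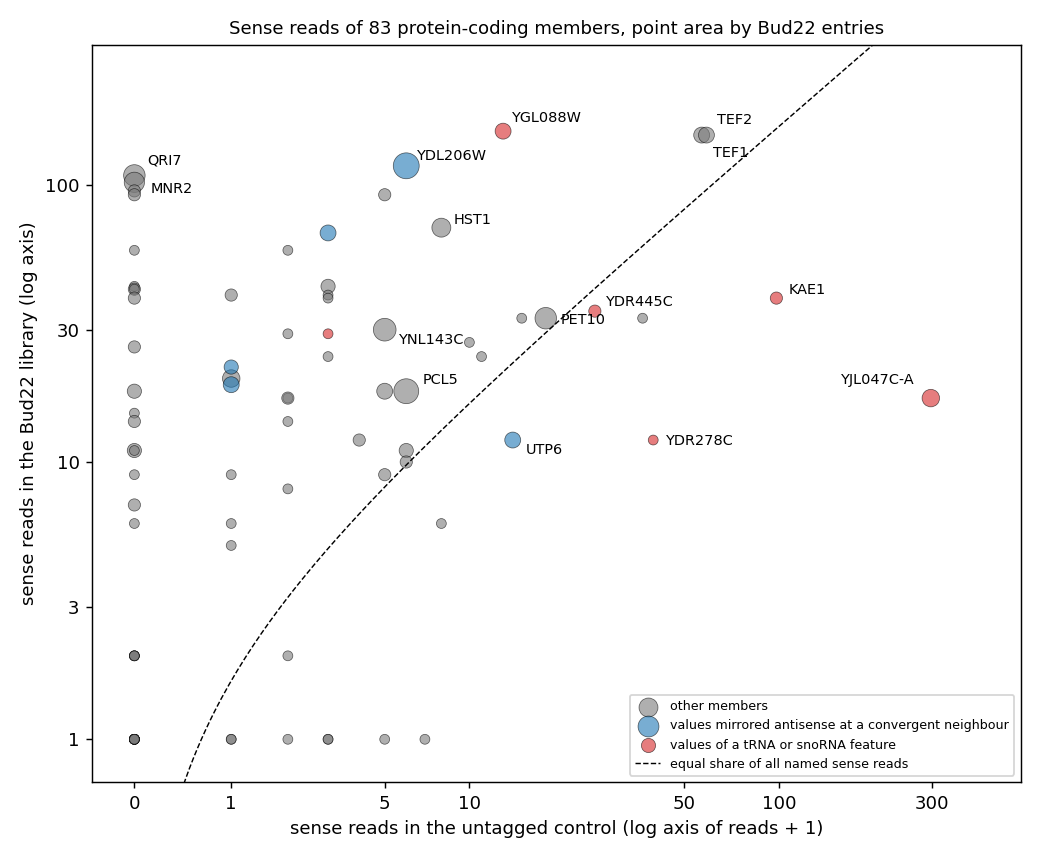
Each point is 1 of the 83 members, with sense reads in the untagged control on the horizontal axis (log axis of reads + 1) and sense reads in the Bud22 library on the vertical log axis. Point area grows with the number of Bud22 entries, and the dashed line marks an equal share of all named sense reads. QRI7 and MNR2 stand at 0 control reads with over 100 Bud22 reads, while YJL047C-A and KAE1, which carry the values of a stable RNA, lie far to the right.

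Several pairs of members carried the same number of Bud22 reads, and these pairs were picked out after the values were seen. The translation elongation factor genes TEF1 and TEF2 each had 151 reads, the enolase genes ENO1 and ENO2 33 each, and the polyamine transporter genes TPO2 and TPO3 42 each. These are close paralogues, and the files do not tell from which copy the equal Bud22 reads came. In the control the counts of the copies differed for TEF1 and TEF2 (57 and 59 reads) and for ENO1 and ENO2 (15 and 37 reads). TPO2 and TPO3 had 0 control sense reads each. IRC9 and the kinase gene YAK1, which overlap on 1 strand in the reference table, both had 58 reads. MRPS16, for a mitochondrial ribosomal protein, and PAM1 both had 92 reads on 2 entries although they are not neighbours, and 4 intergenic rows also had 92 reads on 2 entries. With the 4 paralogous or overlapping pairs counted once, the members held 2103 reads, and with MRPS16 and PAM1 also counted once 2011. A further 4 pairs had equal Bud22 reads and entries without a link in the reference table (INN1 and KAE1, PCM1 and YCR015C, IMD4 and IRA2, ALT2 and MDN1), and were left as they stand.

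Not all members can be taken as messenger RNAs by their values. For 6 of them, sense reads and entries in both libraries were equal to those of a tRNA or snoRNA feature. Whether the label of the group holds for these 6 cannot be told from the counts. They held 288 of the member reads with Bud22 (12.1%) and 478 in the control (58.2%). YGL088W and SNR10, a box H/ACA snoRNA that acts in precursor cleavage and overlaps this reading frame, both had 156 reads on 4 entries with Bud22 and 13 reads on 10 entries in the control. YGL088W was the member with the most Bud22 reads, and its ratio of shares was 7.38 (4.19 to 14.2), or 2.51 (0.574 to 8.70) by entries.

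YJL047C-A overlaps SNR60, a box C/D snoRNA that guides methylation of 25S rRNA. Both had 17 reads on 5 entries with Bud22 and 298 reads on 34 entries in the control. This was the highest control count among the members, and the ratio was 0.035 (0.020 to 0.057) by reads but 0.922 (0.282 to 2.37) by entries. YCR015C, named CTO1 in the reference table, has SNR33 within 500 bases, and both had 29 reads on 1 entry against 3 reads on 2 entries.

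KAE1 encodes the catalytic subunit of the complex that makes the modified base t6A on tRNA. It had 39 reads on 2 entries with Bud22 and 98 reads on 46 entries in the control, the same values as 15 copies of the aspartate tRNA gene tD(GUC), and a tRNA gene lies within 500 bases of it. Its ratio of shares was 0.245 (0.164 to 0.358), and counted by entries 0.273 (0.032 to 1.04). A reading frame without a name, YDR445C, had 35 reads on 2 entries and 26 reads on 16 entries, as did 5 copies of the lysine tRNA gene tK(CUU). YDR278C had 12 reads on 1 entry and 40 reads on 16 entries, as did 2 copies of the glutamate tRNA gene tE(CUC). Neither YDR445C nor YDR278C is in the reference table, so their distance to a tRNA gene was not measured.

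IMD4, for an inosine monophosphate dehydrogenase, shared values with its intronic snoRNA in 1 library only. It had 24 reads on 1 entry with Bud22, as did SNR54, while in the control IMD4 had 11 reads on 5 entries and SNR54 had 3 on 2. By position in the reference table, 3 of 75 matched members overlapped a tRNA or snoRNA gene (YGL088W, YJL047C-A and IMD4), which is 4.0%. Of all 1744 matched protein-coding rows after the same exclusions, 12 did, which is 0.688%. Within 500 bases the numbers were 10 of 75 (13.3%) and 99 of 1744 (5.68%). Reads of a tRNA or snoRNA gene can themselves bring a frame that overlaps it or lies beside it into the group. Both differences can thus follow from the choice of genes with Bud22 reads, and no interval was computed for them. The other members with such a neighbour within 500 bases were ACO1, PCL5, TAH11, MDN1 and YJR129C. SNR79, the neighbour of MDN1, had 17 control reads and 0 with Bud22. Equal values were also seen outside the members. Of 66 rows without Bud22 sense reads but with at least 10 control reads, 10 had the values of a tRNA or snoRNA feature. There the Bud22 sense count is 0 by selection, so the match rests mainly on control reads and entries and is weaker.

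The members with the most distinct entries were mostly not these. Of the 16 members with 4 or more entries, 2 had snoRNA values (YGL088W and YJL047C-A). The 16 held 1089 reads on 99 entries.

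**Figure D2:**
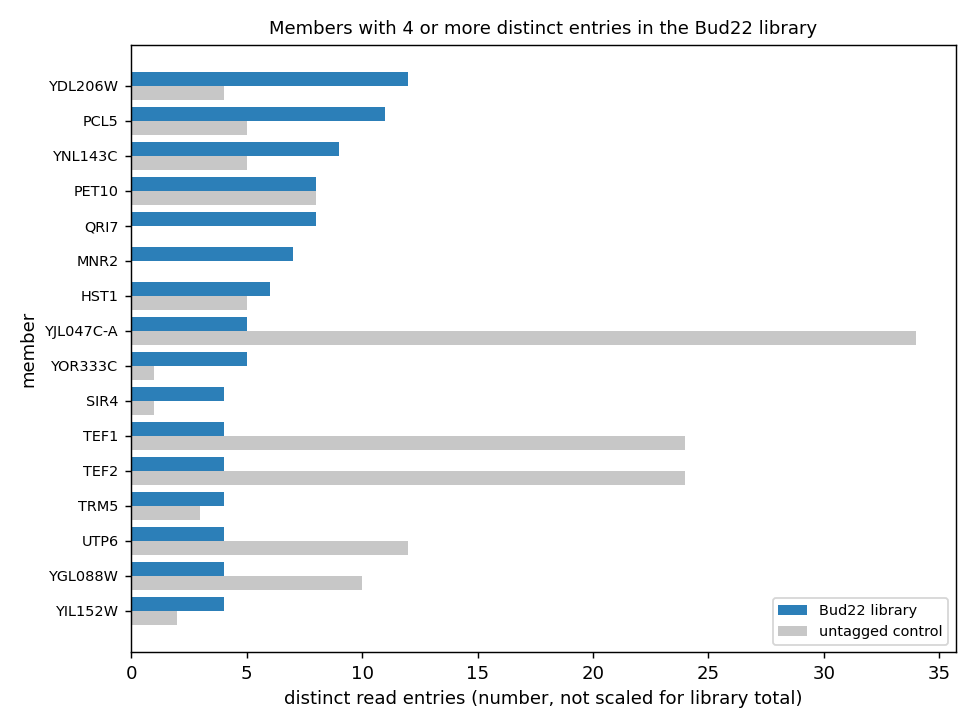
Bars give distinct read entries in the Bud22 library and in the untagged control for the 16 members with 4 or more Bud22 entries. They are not scaled for the entry sums over named features, 5920 and 37130. YDL206W had 12 against 4 and QRI7 8 against 0, while TEF1 and TEF2 had 4 against 24. The entries of MNR2 and PCL5 also include antisense reads, and entries are limited to the sense count, which for MNR2 is 0 in the control.

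YDL206W, named YCX1 in the reference table and related to cation exchangers, had 117 reads on 12 entries with Bud22 and 6 reads on 4 entries in the control. Its ratio was 12 (5.35 to 33.4) by reads and 18.8 (5.70 to 80.0) by entries, so both intervals lay above 1. QRI7, the mitochondrial counterpart of KAE1 that makes t6A on mitochondrial tRNA, had 108 reads on 8 entries against 0 in the control. Against a floor of 3 control reads its share was 22.2-fold higher by reads. The exact lower bounds of its ratios were 17.7 by reads and 10.7 by entries. MNR2, for a vacuolar magnesium transporter, had 102 sense reads and 20 antisense reads on 7 entries with Bud22, against 0 sense and 5 antisense reads on 2 entries. Its sense share was 20.9-fold higher by reads against the same floor, with an exact lower bound of 16.7.

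HST1, a NAD-dependent deacetylase related to Sir2, had 70 reads on 6 entries with Bud22 and 8 on 5 in the control, with ratios of 5.38 (2.59 to 13.0) and 7.53 (1.91 to 31.2). YNL143C, a little characterised frame, had 30 reads on 9 entries against 5 on 5, with ratios of 3.69 (1.42 to 12.2) and 11.3 (3.40 to 42.9). PET10, the lipid droplet perilipin named PLN1 in the reference table, had 33 reads on 8 entries against 18 on 8. Its read ratio of 1.13 (0.617 to 2.13) included 1 and its entry ratio of 6.27 (2.05 to 19.2) did not. PCL5, a cyclin of the Pho85 kinase, had 18 sense reads against 6, and the ratio of 1.85 (0.702 to 5.68) included 1. The 11 entries against 5 include those of 49 antisense reads, so its entry ratio of 13.8 (4.42 to 50.7) is not one of sense entries.

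The repeated housekeeping genes TEF1, TEF2, ENO1 and ENO2 each had 15 or more control reads. TEF1 had 151 reads on 4 entries against 57 on 24, and its ratio was 1.63 (1.19 to 2.25) by reads and 1.05 (0.264 to 3.04) counted by entries. TEF2 had the same Bud22 values and 59 control reads on 24 entries. ENO2 had 33 reads on 1 entry against 37 on 18, with ratios of 0.549 (0.333 to 0.902) by reads and 0.348 (0.00836 to 2.21) by entries. ENO1 had 33 on 1 against 15 on 9, with ratios of 1.35 (0.715 to 2.68) and 0.697 (0.0159 to 5.03). By reads none of the 4 reached a 2-fold difference, and by entries all 4 intervals included 1. Expression of these 4 genes was not measured here.

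In 5 members the sense reads were mirrored as antisense reads of a neighbouring gene. YDL206W, YIL152W, YHR033W, SIR4 and UTP6 each had a convergent neighbour whose antisense reads and entries were equal to the member's own sense values in both libraries. These neighbours were HEM3, YIL151C, PIH1, PCF11 and ADA2. In the reference table none of the 5 pairs overlaps, and the extent of the features counted in the files is not recorded. The 5 members held 237 reads on 27 entries with Bud22 and 25 reads on 20 entries in the control. YIL152W, named VPR1 in the reference table, had 67 reads on 4 entries against 3 on 2, a ratio of 13.7 (4.50 to 68.3) and 12.5 (1.80 to 139) by entries. SIR4, a silencing protein, had 19 reads on 4 entries against 1 on 1, with an entry ratio of 25.1 (2.48 to 1236). YHR033W had 22 reads on 3 entries against 1 on 1. Of the 16 members with 4 or more entries, 4 were of this kind. Where along the genes the reads lay is not recorded in the files.

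Equal values were also found among regions between genes. The members with 10 or more Bud22 reads numbered 52. For 35 of them, an intergenic row had antisense reads and entries equal to the member's sense values in both libraries. Among these 35 were QRI7, MNR2, TEF1, TEF2, PAM1, BMS1 and NOP1, while YDL206W, HST1 and TRP4 were not. Any intergenic row was allowed whatever its position, so equal values need not mean the same place. The same share over other features was not counted, so this cannot be read as a trait of the members.

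Genes of Bud22's own pathway were looked at first. Of a list of small subunit assembly genes, 28 had control reads, and 3 of them were members (10.7%, against 3.28% of all 1554 control-detected rows after the exclusions). UTP6, a component of the small subunit processome, had 12 reads on 4 entries against 14 on 12, with ratios of 0.527 (0.223 to 1.23) by reads and 2.09 (0.491 to 6.90) by entries, and both intervals included 1. BMS1, a GTPase of the same particle, had 40 reads on 2 entries against 1 on 1, with ratios of 24.6 (4.17 to 996) and 12.5 (0.653 to 740), of which the second included 1. NOP1, the fibrillarin that methylates RNA with box C/D snoRNAs, had 39 reads on 1 entry against 3 on 3, a ratio of 8.0 (2.54 to 40.5) by reads and 2.09 (0.040 to 26.0) counted by entries. The list as a whole had 91 reads on 7 entries against 90 on 55, a ratio of 0.622 (0.460 to 0.842) for reads and 0.798 (0.307 to 1.76) for entries. All protein-coding rows after the exclusions stood at 0.234 (0.223 to 0.245) for reads and 0.407 (0.350 to 0.472) for entries. The list thus lay above that value for reads, and for entries its interval included it. All its Bud22 reads are those of the 3 members. The median log2 ratio of its 3 measured genes was 2.80, beside -0.93 over the 494 measured features and -5.09 over the protein-coding ones. But these 3 are the members themselves, so the median follows from their choice. BUD22 itself had 0 sense reads in both libraries.

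For the large subunit, 26 genes had control reads and none of these was a member. MDN1, the large ATPase that strips factors from pre-60S particles and is named REA1 in the reference table, was a member with 11 reads on 3 entries against 0. GAR1, a core protein of box H/ACA particles, had 1 read against 3.

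tRNA modification was represented by QRI7, KAE1 and TRM5, a methyltransferase of the base next to the anticodon. TRM5 had 18 reads on 4 entries against 5 on 3, a ratio of 2.22 (0.793 to 7.63) by reads and 8.36 (1.42 to 57.1) by entries. As given above, the values of KAE1 are those of an aspartate tRNA. Among other RNA-related genes, MRPS16 had 92 reads on 2 entries against 5 on 3, and MPT5, a Puf-family RNA-binding protein, had 10 on 2 against 6 on 4. SEN1, a helicase that ends transcription of short non-coding RNAs, had 7 reads on 2 entries against 0. YJR129C, a methyltransferase of an elongation factor named EFM3 in the reference table, had 1 read against 0.

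Chromatin and transcription factors made up 9 members, with 173 reads on 19 entries against 24 on 15, and HST1 and SIR4 held 10 of the 19 entries. INO80, the ATPase of a nucleosome remodelling complex, had 40 reads on 1 entry against 3 on 1. FKH2, a forkhead factor of the cell cycle, had 18 reads on 3 entries against 0. SWC4, a subunit of the SWR1 and NuA4 complexes, had 17 on 1 against 2 on 1. TOS8, a homeodomain protein, had 6 reads on 1 entry against 8 on 5. RSC8 of the RSC remodelling complex, RTF1 of the Paf1 complex and MAL13, an activator of maltose genes, had 1 read each, against 2, 0 and 0.

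Genes of kinases, cyclins and signalling numbered 7, with 124 reads on 18 entries against 21 on 11. YAK1, a stress-responsive kinase, had 58 reads on 1 entry against 2 on 1. IRA2, a negative regulator of Ras, had 24 on 1 against 3 on 1, and the kinase gene VHS1 had 17 on 2 against 2 on 1. The cell wall integrity kinase gene PKC1 had 5 reads against 1, the 14-3-3 gene BMH1 had 1 against 7, and the autophagy gene ATG13 had 1 against 0. The 3 genes of DNA replication and cell division were INN1 (39 reads on 2 entries against 0), which acts in cytokinesis, and DPB11 (12 on 2 against 4 on 1) and TAH11 (9 on 1 against 1 on 1), which act in replication initiation.

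Metabolic enzymes were the largest group with a known role, with 12 members, 293 reads on 18 entries and 37 reads on 20 entries in the control. TRP4, an enzyme of tryptophan synthesis, had 95 reads on 2 entries against 0. Its share was 19.5-fold higher by reads against a floor of 3 control reads. The exact lower bounds of its ratios were 15.5 by reads and 1.18 by entries. Aconitase ACO1 had 43 reads on 3 entries against 3 on 1, and QCR6, a subunit of respiratory complex III, had 26 on 2 against 0. GDH1, a glutamate dehydrogenase, had 27 on 1 against 10 on 4, a ratio of 1.66 (0.779 to 3.85). PCM1, of aminosugar synthesis, had 29 on 1 against 2 on 1, and SOL4, of the pentose phosphate pathway, 15 on 1 against 0. ECM38, of glutathione breakdown, had 14 on 1 against 2 on 1, and ALT2, related to alanine transaminase, 11 on 3 against 6 on 6. Most of these enzymes thus rested on a single Bud22 entry. The alcohol dehydrogenase genes ADH7 and ADH4 had 6 and 2 reads against 0, and GUA1, for GMP synthase, had 1 against 3.

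Transport, membrane and lipid genes numbered 11, with 357 reads on 36 entries against 31 on 16, and YDL206W, PET10 and MNR2 held 27 of the 36 entries. TPO2 and TPO3 had 42 reads on 2 and 1 entries against 0 sense reads, and the entries of TPO2 also cover 8 antisense reads. YLR072W, a sterol transporter named LAM6 in the reference table, had 9 reads on 1 entry against 0. Genes of vesicle coats, actin assembly, peroxisomes and lipid storage (APM1, GGA1, ARC35, PEX19 and YDR319C) had 1 to 6 reads, against 0 to 5. The deubiquitinase gene UBP15 had 43 reads on 1 entry against 0, MNL1, a mannosidase of the endoplasmic reticulum, had 9 on 2 against 5 on 3, and the ubiquitin ligase gene HUL4 had 1 against 0 sense and 18 antisense reads. The sporulation genes SPO73 and SPO75 had 1 and 2 reads, against 1 and 0.

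The remaining 20 members are little characterised, dubious or given no role here, and held 578 reads on 47 entries against 394 on 89. Beside those described above, YOR333C had 20 reads on 5 entries against 1 on 1, an entry ratio of 31.4 (3.51 to 1483), and the non-coding transcript SUT647 had the same values. YNL095C had 14 reads on 2 entries against 0, YMR114C 11 on 1 against 0 and YGR139W 8 on 1 against 2 on 1. YKR040C, YJR071W, YGL177W, YIR018C-A, YFR034W-A and ECM13 had 1 or 2 sense reads each.

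**Figure D3:**
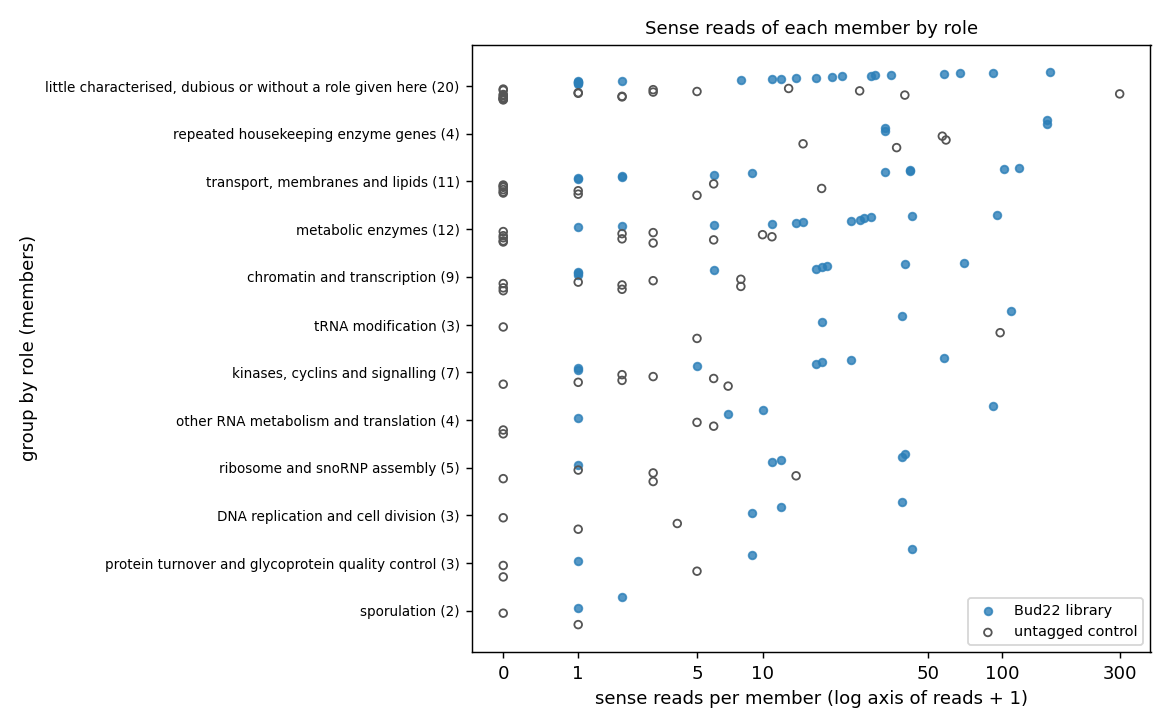
Each filled point is a member's sense reads in the Bud22 library and each open point its sense reads in the untagged control, on a log axis of reads + 1, with members grouped by role and the number of members in brackets. Bud22 reads reach 156 in the group without a given role, and every group with more than 3 members spans both single reads and over 30 reads except the repeated housekeeping genes, which lie between 33 and 151.

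The other gene lists held between 0 and 3 members each, to be read against the 3.28% of all control-detected rows that were members. Of 31 heat shock and chaperone genes with control reads none was a member, nor was any of 20 cell wall genes, 20 lipid and sterol genes, 9 mitochondrially encoded genes or 4 histone genes. Glycolysis and fermentation gave 2 of 19 control-detected genes (ENO1 and ENO2) and ADH4, amino acid synthesis 1 of 50 (GDH1) and TRP4, and translation factors 2 of 34 (TEF1 and TEF2). The purine and pyrimidine lists gave 2 of 20 (IMD4 and GUA1), and TPO2 and TPO3 were the only members among the listed transporters, of which 24 had control reads. By summed reads, glycolysis and fermentation stood at a ratio of 0.126 (0.0956 to 0.164) and 0.145 (0.0295 to 0.432) by entries, and translation factors at 0.494 (0.423 to 0.577) and 0.297 (0.126 to 0.599). All protein-coding rows after the exclusions had a read ratio of 0.234 (0.223 to 0.245) and an entry ratio of 0.407 (0.350 to 0.472). Translation factors thus lay above that value by reads and glycolysis below it, and by entries both intervals included it. All Bud22 reads of the translation factors are those of TEF1 and TEF2, 151 each. Those of glycolysis and fermentation are mostly from ENO1 and ENO2, 33 each. As the copy of origin is not known, both lists can count the same reads at each paralogue. Ratios with such reads counted once were not computed.

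The control counts, which the choice did not use, place the members among the RNAs recovered without a tag. Of the 83 members, 51 had control sense reads and 32 had none (38.6%). Of these 32, 17 had only 1 to 9 Bud22 reads. The share without control reads was not counted over other features with Bud22 reads. The 38.6% therefore cannot be read as a trait of the members. Among the 1554 control-detected rows, 1.84% of the 489 rows with 1 control read were members (interval 0.845 to 3.46), and 2.30% of the 739 rows with 2 to 4 reads (1.35 to 3.66). The share was 4.86% of the 247 rows with 5 to 9 reads (2.54 to 8.33), 14.3% of the 42 rows with 10 to 19 (5.43 to 28.5) and 18.9% of the 37 rows with 20 or more (7.96 to 35.2). Without rows that had tRNA or snoRNA values the last 2 shares were 13.9% of 36 and 10.7% of 28. Of the 50 rows with the most control reads, 10 were members, and 4 of these 10 had tRNA or snoRNA values. The 5 highest rows outside the group were CDC19, URM1, SCM4, SEC14 and VMA7, with 99, 91, 80, 72 and 65 control reads and 0 with Bud22.

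**Figure D4:**
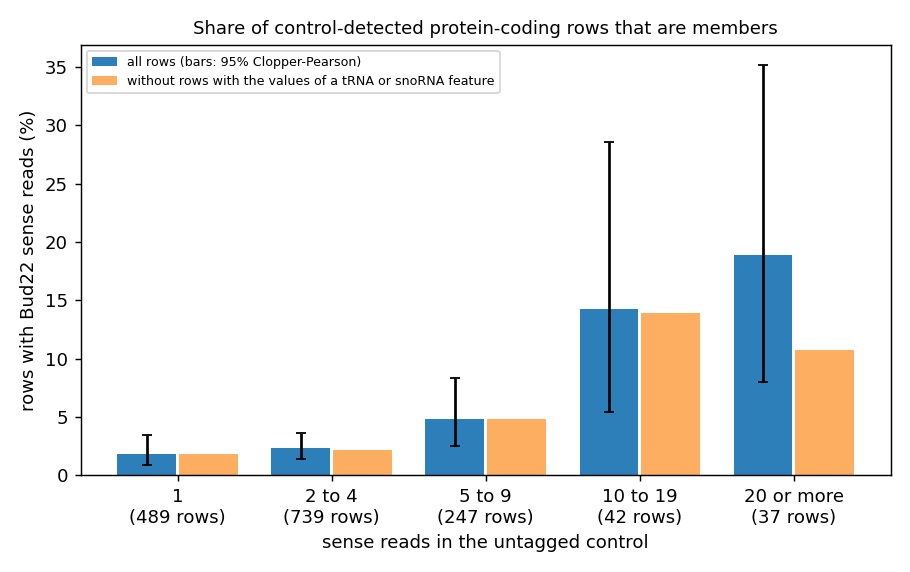
Bars give the percentage of control-detected protein-coding rows that also had Bud22 sense reads, by the number of control sense reads, with 95% Clopper-Pearson intervals on the bars for all rows and the values without rows equal to a tRNA or snoRNA feature beside them. The share runs from 1.84% at 1 control read to 18.9% at 20 or more, and 10.7% in that last class without the stable RNA values.

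The 32 members without control sense reads held 756 Bud22 reads on 56 entries, and 21 of them rested on 1 entry. The 11 with 2 or more entries were QRI7 with 8, MNR2 with 7, FKH2 and MDN1 with 3 each, and TRP4, PAM1, TPO2, INN1, QCR6, YNL095C and SEN1 with 2 each. The entries of MNR2 and TPO2 also cover antisense reads, so their sense entries may be fewer. TPO3, with the same 42 sense reads as TPO2 and no antisense reads, had 1 entry. A count of 0 in the control allows a share of up to 0.00226%, and 5 of the 32 had antisense reads there.

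By the rule used for calling a feature, which asks for 10 or more reads in the libraries together, a 2-fold difference and an interval that leaves out 1, 56 members could be measured. Of these, 34 were higher with Bud22, 3 lower and 19 neither. The same rule called 23.7% of the 494 measured features higher and 49.4% lower, and 20.7% of the 174 measured protein-coding features higher and 66.1% lower. The high count of higher members follows from the choice on Bud22 reads and says nothing about them: 43 of the 56 had under 10 control reads, and 33 of the 34 higher calls were among those 43. Of the 13 members with 10 or more control reads, 1 was higher (YGL088W), 3 were lower (YJL047C-A, KAE1 and YDR278C) and 9 were neither. All 4 that were called carry the values of a tRNA or snoRNA feature. The median log2 ratio of the 56 was 2.59, beside -0.93 over all measured features and -5.09 over protein-coding features.

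By entries 15 members could be measured, and 5 were higher and 0 lower. All 5 had under 10 control entries and were measured through their Bud22 entries, so these calls too follow from the choice, and of the 9 members with 10 or more control entries 0 were higher. The background by entries was 17.5% higher and 12.6% lower over 342 measured features, and 8.11% and 36.5% over 74 protein-coding features. The 5 were YDL206W, HST1, YNL143C, PET10 and PCL5, of which YDL206W, HST1 and YNL143C were also higher by reads. The entries of PCL5 include antisense ones, which leaves 4 without antisense reads. Of the 34 members higher by reads, 21 rested on at most 2 entries.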

How the data were processed

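The files hold raw counts of sense and antisense reads per feature, with a further column of read numbers, made with pyReadCounters of Counters version 1.2.1, per the file headers. From the values, that further column is taken as distinct read entries on both strands, and it was limited here to the sense count. Aligner settings, duplicate removal, genome build and annotation release were not given in the sources used here, and coordinates are left out. Identical values at repeat copies show that reads could be counted at several features. Intergenic rows were left out of totals (215982 and 132895 sense reads).

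Of the 83 members 75 matched the R64 RefSeq gene table, which was used for names and neighbours only. Shares have Clopper-Pearson intervals and ratios exact conditional binomial intervals (scipy 1.17.1), checked on simulated counts. Log2 ratios used a pseudocount of 0.5. A count of 0 was bounded at 3 counts per library. Equal values means identical reads and entries in both libraries, looked for at 10 or more Bud22 reads. For rows without Bud22 sense reads they were looked for at 10 or more control reads. By the naming rule, values are given for members near or equal to a tRNA or snoRNA feature, with the most reads or entries, with the most control reads, or in a gene list, and the others were named by role. The 12 role groups, the 12 gene lists and the members were chosen with earlier results of these data known, and the roles and equal values after the counts were seen. Alternatives changed the denominator, the count minimum, the interval, the fold, the pseudocount and the members kept.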

Additional observations from a re-analysis of the deposited data

Results flagged for a closer look

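Antisense reads were not used to choose the members. PCL5 had 49 antisense reads with Bud22 and 3 in the control, a ratio over the sense total of named features of 10.05 (3.24 to 50.4), on 11 and 5 entries for both strands together. It has a tRNA gene within 500 bases, whose part in these reads was not tested. Of the 83 members, 4 had antisense reads with Bud22, and the intervals of the other 3 (MNR2 with 20 against 5, TPO2 with 8 against 2 and YJR071W with 11 against 1) included 1.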

How the results depend on the processing

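No paired analysis was possible because the labels give no replicate number and each group has 1 library. Of 54 recomputed values, 34 stayed within the counting error or 1.5 times of the first value, and none changed direction, but the choice of members on Bud22 reads fixes that direction in part. By distinct entries the share ratio was 3.93, the higher and lower members numbered 5 and 0, and the median log2 ratio was 0.20. With 2 or more Bud22 entries also asked for, a setting added after seeing the data, 5 were higher. The share ratio was 1.504 over mapped reads, 1.13 with totals without rRNA, where 6 members were lower, and 6.03 over protein-coding reads, where 1 was lower and the median was 4.34. It was 2.70 without members overlapping a tRNA or snoRNA gene. Without those with the values of such a feature, also added after seeing the data, it was 3.77, and 0 were lower. Higher members numbered 22 with at least 2 entries and 22 with at least 30 counts, and the median was 1.62 with no minimum. Members without control reads numbered 11 with at least 2 entries and 15 with at least 10 reads, and 10 members lay within 500 bases of a tRNA or snoRNA gene. Why these values moved was not tested. At 12.5 reads per entry for the members, bounds of fold hold for reads and not for molecules.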
